A study of Mus musculus with 8 samples.

Results

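The genes described here were 10 feedback genes of the ERK pathway, Dusp4, Dusp5, Dusp6, Spry1, Spry2, Spry4, Spred1, Spred2, Etv4 and Etv5. They were taken as a list of gene symbols with no threshold on their values. The list was chosen with earlier results of these data known. All 10 were found among the 24419 symbols of the count table. Bulk polyA RNA of 4 mouse models of endometrial cancer had been sequenced, with 2 libraries for each model. All models started from uterus organoids of Cas9-expressing mice in which Trp53 was targeted by an sgRNA among other edits, and the edited organoids were placed in the uterus of female nude mice. TPM tumors also overexpressed Myc from a retroviral cDNA. TPMCa tumors, named TPMPik3ca in the labels, overexpressed Myc and carried a Pik3ca E545K cDNA, and TPMR1 tumors, named TPMPik3r1 in the labels, overexpressed Myc and carried an sgRNA against Pik3r1. The Myc cDNA was not introduced in TPK. The labels describe the material as tumor organoids, whereas the methods of the study describe tumor tissue collected after transplantation, so that host cells may be included. By the description of the study the libraries of a model came from different mice, and the labels do not name the mouse of a library.

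Growth factor receptors signal through Ras, Raf and MEK kinases to ERK, and active ERK switches on genes that in turn restrain the pathway. The dual-specificity phosphatases remove the activating phosphates of MAP kinases, Dusp6 in the cytoplasm and Dusp4 and Dusp5 in the nucleus. Sprouty proteins dampen signaling between receptor and Raf, Spred proteins bring neurofibromin to Ras at the membrane, and Etv4 and Etv5 are ETS transcription factors of the PEA3 group that act downstream of FGF receptors. Levels of such genes are often read as an ERK output, and the question addressed was whether they stood apart in TPK, the model without the Myc cDNA.

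Of the 10 genes, 7 had an entry in the RefSeq promoter table of GRCm38.p6. The sequences upstream of Dusp5 and Dusp6 are shown because these phosphatases stood on opposite sides in the comparison of TPK with TPMR1. Both genes lie on the plus strand, Dusp5 at chr19:53529109-53542431 and Dusp6 at chr10:99263231-99267489 of GRCm38 in the GENCODE annotation, and the runs end just before the annotated gene start. Capitals mark 2 ETS cores, 2 neighboring CArG boxes and 1 CRE core in the Dusp5 run (chr19:53528895-53529108) and 6 ETS cores in the Dusp6 run (chr10:99262981-99263230).
Dusp5: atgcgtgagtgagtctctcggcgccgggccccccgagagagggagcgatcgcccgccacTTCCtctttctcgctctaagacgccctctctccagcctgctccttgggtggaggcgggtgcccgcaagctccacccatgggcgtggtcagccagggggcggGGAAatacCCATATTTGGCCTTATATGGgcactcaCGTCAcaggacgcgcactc
Dusp6: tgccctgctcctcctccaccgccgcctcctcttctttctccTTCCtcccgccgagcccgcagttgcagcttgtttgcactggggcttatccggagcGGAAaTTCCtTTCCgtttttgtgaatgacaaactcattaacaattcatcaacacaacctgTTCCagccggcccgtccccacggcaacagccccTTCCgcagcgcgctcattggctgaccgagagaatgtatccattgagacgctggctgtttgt

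The motifs were searched on both strands in the 250 bases before each start, as the ETS core GGAA, the CRE core TGACG, the AP-1 site TGANTCA and the CArG box by its name. A CArG box, the element bound by serum response factor, was held by 1.47% of 32851 RefSeq promoters, and among the 7 matched genes it was found at Dusp5. The CRE core was held by 17.8% of promoters, and of the matched genes by Dusp5 and Spred2. The ETS core was so short that 93.4% of promoters held it, and the AP-1 site was held by 6.75% of promoters and by none of the 7 genes. These matches describe letters in a window and were not measured as binding.

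Total counts lay between 15748396 and 26943611 per library, and a floor of 3 counts corresponded to 0.116 to 0.198 CPM (reads of a gene relative to library size after TMM scaling). These floors cover counting error only, whereas the intervals of differences given below include the spread between libraries. All 10 genes passed the filter on low counts, along with 15875 genes in all, and the lowest count among them was 21 reads of Spry4 in TPK replicate 2. The replicates of TPMR1 stood apart from each other, with 7 of the 10 genes over 2-fold apart against 3 in TPK, 2 in TPM and 0 in TPMCa. The Myc level was 153.5 and 92.75 CPM in the TPK libraries and between 323.5 and 3075 CPM in the other libraries. Summed epithelial markers (6 genes) were 3240 and 4960 CPM in TPK and 2940 to 5500 CPM in TPM, but 23.7 to 73.3 CPM in TPMCa and 6.47 to 27.4 CPM in TPMR1. Squamous markers (7 genes) were 13200 to 20300 CPM in TPK, 5290 to 17300 CPM in TPM, 3.06 to 6.71 CPM in TPMCa and 1.32 to 11.7 CPM in TPMR1, where Krt5, Krt6a, Krt17 and Dsg3 were at 0. RNA of these epithelial markers was therefore barely present in TPMCa and TPMR1, although the study reports glandular structures in stained sections of both tumors. In bulk samples, fewer cells of a type and less RNA per cell cannot be told apart.

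Compared per kilobase of exon, the members with the highest mean level in TPK were Dusp4 (34.56 ± 2.54 CPM per kb, SD, n = 2), Dusp6 (26.9 ± 8.78) and Spry2 (12.95 ± 3.03). Spred1 (8.88 ± 2.04), Dusp5 (7.26 ± 3.33), Spred2 (4.70 ± 0.334) and Spry1 (4.10 ± 1.85) followed in CPM per kb. Etv5 (2.98 ± 1.69), Etv4 (2.16 ± 2.13) and Spry4 (0.867 ± 0.814) were lowest on this scale. Neighbors in this order lay within their SDs of each other, apart from Dusp6 above Spry2. In TPMR1 the order was led by Dusp5 (35.99 ± 13.91 CPM per kb), followed by Dusp4 (12.31 ± 8.55) and Spry2 (11.17 ± 8.27), and in TPMCa by Dusp5 (25.81 ± 8.81), Dusp6 (25.5 ± 2.42) and Spry1 (19.46 ± 8.73). In TPM the highest were Dusp4 (40.35 ± 24.73 CPM per kb) and Dusp5 (11.95 ± 9.71).

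**Figure D1:**
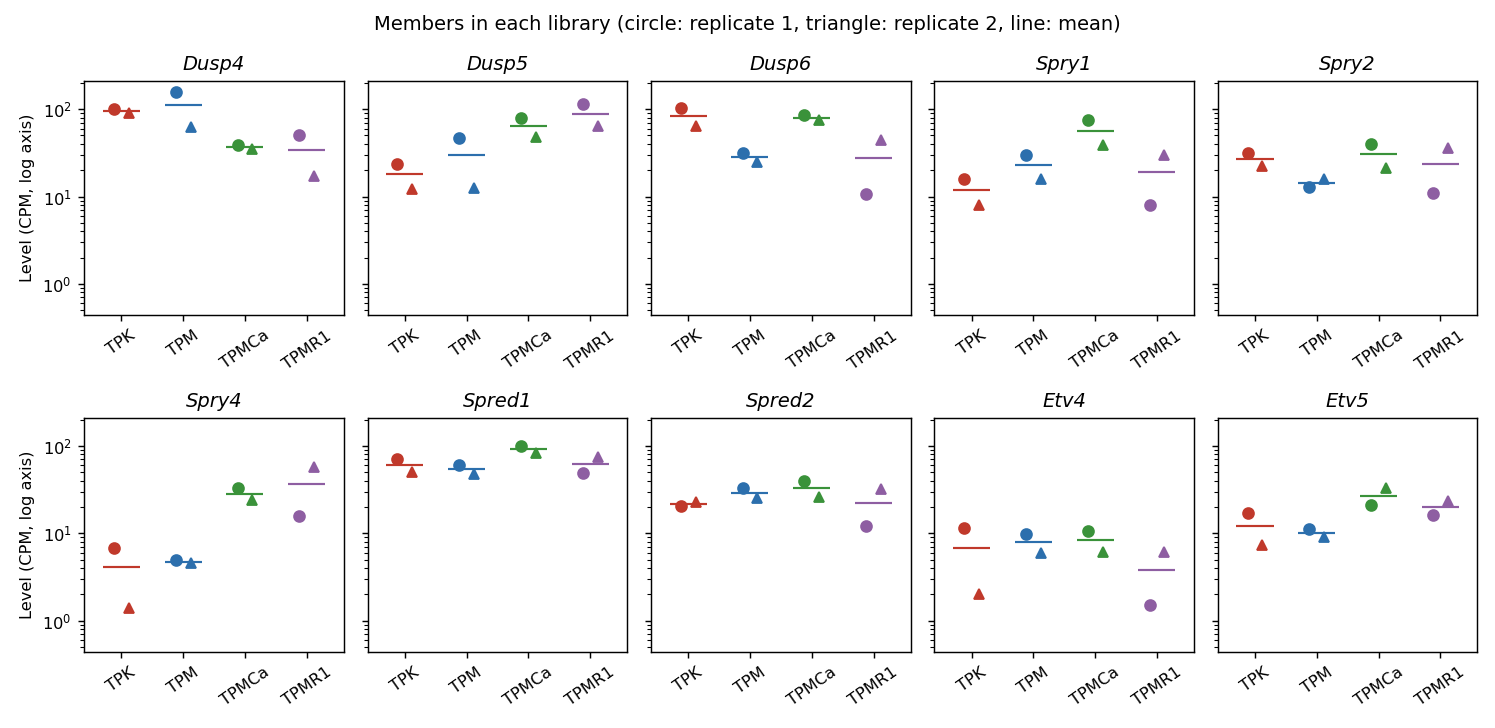
Level of each of the 10 genes in CPM on a log axis, with 1 panel per gene, 1 color per model, a circle for replicate 1, a triangle for replicate 2 and a line at the mean. Spry4 lay between 1.38 and 6.86 CPM in TPK and TPM and between 15.8 and 57.0 CPM in TPMCa and TPMR1, and Dusp6 lay higher in TPK and TPMCa than in TPM and TPMR1.

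Among the phosphatases, Dusp6 was high in TPK and TPMCa and low in TPM and TPMR1. Dusp6, the cytoplasmic phosphatase of ERK, was at 103.7 and 64.8 CPM in TPK, 31.4 and 24.6 in TPM, 85.2 and 74.5 in TPMCa tumors, and 10.7 and 44.1 in TPMR1. The TPK libraries lay above all TPM and TPMR1 libraries and on both sides of the TPMCa libraries. The difference (TPK minus the other model) was 1.59 ± 0.628 (SE) on the log2 scale against TPM, with an unadjusted p of 0.0405 and an adjusted p of 0.691 by edgeR's quasi-likelihood test. Against TPMR1 it was 1.62 ± 0.628 with an adjusted p of 0.143 by edgeR. That difference was 2.98 without TPMR1 replicate 2 (adjusted p = 0.0103 by edgeR) and 0.94 without TPMR1 replicate 1 (adjusted p = 0.177 by edgeR). Summed macrophage markers (5 genes) followed the same split as Dusp6, at 1540 to 2580 CPM in TPK and 926 to 3980 CPM in TPMCa, against 416 to 883 CPM in TPM and 250 to 604 CPM in TPMR1, and their part in its levels was not tested. Against TPMCa it was 0.08, with a 95% interval from -1.38 to 1.54. Leaving out TPK replicate 1 turned the difference from TPMCa to -0.33, and scaling by library size alone turned it to -0.05.

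Dusp4, a nuclear phosphatase of ERK and other MAP kinases (chr8:34807297-34819894), was high in TPK and TPM. Its level was 99.6 and 89.8 CPM in TPK, 158.5 and 62.6 in TPM, 38.6 and 35.01 in TPMCa tumors, and 50.3 and 17.2 in TPMR1. The TPK libraries lay above all TPMCa and TPMR1 libraries and within the range of the TPM libraries. The log2 difference was 1.36 ± 0.597 against TPMCa (adjusted p = 0.197 by edgeR) and 1.49 ± 0.599 against TPMR1 (adjusted p = 0.155 by edgeR). With only TPK and TPMCa in the fit, the adjusted p of the first was 0.035 by edgeR, and the second was 2.46 without TPMR1 replicate 1 and 0.92 without TPMR1 replicate 2. Against TPM it was -0.22, with a 95% interval from -1.62 to 1.17, and 0.58 without TPM replicate 1.

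Dusp5, a nuclear phosphatase specific for ERK whose upstream run is printed above, had the reverse order. It was at 23.8 and 12.1 CPM in TPK, 46.5 and 12.6 in TPM, 79.2 and 48.4 in TPMCa tumors, and 113.3 and 64.7 in TPMR1. The TPK libraries lay below all TPMCa and TPMR1 libraries and overlapped those of TPM. The log2 difference was -1.83 ± 0.689 against TPMCa and -2.31 ± 0.7 against TPMR1, or 4.96-fold lower in TPK. The adjusted p-values were 0.149 and 0.0826 by edgeR's quasi-likelihood test and 0.0478 and 0.00865 by DESeq2. Against TPM it was -0.72 (adjusted p = 0.846 by edgeR), and 0.50 without TPM replicate 1.

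Of the Sprouty genes, Spry4 was low in TPK and TPM, Spry1 was high in TPMCa, and the Spry2 libraries of TPK overlapped those of TPMCa and TPMR1. Spry4, on chromosome 18, was at 6.86 and 1.38 CPM in TPK, 4.94 and 4.52 in TPM, 32.7 and 23.9 in TPMCa tumors, and 15.8 and 57.0 in TPMR1. All TPK and TPM libraries lay below all TPMCa and TPMR1 libraries. Against TPMCa the log2 difference was -2.77 ± 0.889 (6.83-fold lower in TPK), with an adjusted p of 0.109 by edgeR and 0.00931 by DESeq2. It was -4.38 without TPK replicate 1 and -2.04 without TPK replicate 2. Against TPMR1 it was -3.13 ± 0.901 (8.78-fold lower), with an adjusted p of 0.0727 by edgeR and 0.00222 by DESeq2. That difference was -4.7 without TPK replicate 1 and -1.93 without TPMR1 replicate 2, the widest values when each library was left out in turn, and its adjusted p was 0.0448 by edgeR without TPMR1 replicate 1. Spry4 levels also lay apart among the models that share Myc overexpression, with TPMR1 above TPM by 2.94 ± 0.893 and TPMCa above TPM by 2.58 ± 0.881 on the log2 scale (adjusted p = 0.112 and 0.159 by edgeR). Against TPM the TPK difference was -0.19, with a 95% interval from -2.2 to 1.82, and 0.54 without TPK replicate 2.

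Spry1, on chromosome 3, was at 15.7 and 8.11 CPM in TPK, 29.6 and 15.7 in TPM, 74.5 and 38.6 in TPMCa tumors, and 7.98 and 30.0 in TPMR1. The libraries of TPMCa stood above all the others, and those of TPK and TPMR1 overlapped. The TPK difference from TPMCa was -2.25 ± 0.749 on the log2 scale, with an adjusted p of 0.118 by edgeR and 0.0192 by DESeq2. Without TPMR1 replicate 1 or replicate 2 in the fit its adjusted p was 0.0428 and 0.0442 by edgeR. From TPM the difference was -0.93 ± 0.724 and from TPMR1 -0.67 ± 0.721, or 0.58 without TPMR1 replicate 2.

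Spry2, on chromosome 14, was at 31.5 and 22.5 CPM in TPK, 12.9 and 15.7 in TPM, 40.2 and 21.3 in TPMCa tumors, and 11.1 and 35.5 in TPMR1. The TPK libraries lay above those of TPM and overlapped the rest. The log2 difference from TPM was 0.92, with a 95% interval from -0.52 to 2.36 and an adjusted p of 0.767 by edgeR. From TPMCa it was -0.19, with an interval from -1.61 to 1.24, and from TPMR1 0.21, with an interval from -1.21 to 1.64, so that differences of about 2-fold in either direction remained within these intervals.

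The Spred genes differed by at most 0.60 on the log2 scale in the comparisons of TPK with each model. Spred1, on chromosome 2, was at 70.0 and 50.4 CPM in TPK, 60.1 and 47.2 in TPM, 99.1 and 83.5 in TPMCa tumors, and 49.6 and 75.0 in TPMR1. The TPMCa libraries were above all the others. The TPK difference from TPMCa was -0.60 ± 0.315 (adjusted p = 0.264 by edgeR), and the differences from TPM and TPMR1 were 0.17 and -0.05, with intervals from -0.58 to 0.91 and from -0.80 to 0.70. Spred2, on chromosome 11, was at 20.6 and 22.8 CPM in TPK, 33.2 and 25.3 in TPM, 39.5 and 25.7 in TPMCa tumors, and 12.2 and 31.9 in TPMR1. Its TPK libraries lay just below those of TPM and TPMCa and inside the range of TPMR1. The log2 differences were -0.43, -0.58 and -0.02 against TPM, TPMCa and TPMR1, each with an SE of about 0.5.

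Of the PEA3 factors, Etv4 overlapped in TPK with each other model, and Etv5 in TPK lay below TPMCa and overlapped TPM and TPMR1. Etv4, on chromosome 11, was at 11.4 and 2.04 CPM in TPK, 9.81 and 5.89 in TPM, 10.7 and 6.07 in TPMCa tumors, and 1.51 and 6.06 in TPMR1. Both TPK libraries bracketed every TPM and TPMCa library. The log2 differences from TPM, TPMCa and TPMR1 were -0.23, -0.32 and 0.83, with SEs of 0.974, 0.974 and 0.983, and leaving out 1 of the TPK libraries reversed each of the 3. Etv5, on chromosome 16, was at 17.1 and 7.32 CPM in TPK, 11.2 and 9.15 in TPM, 20.96 and 32.8 in TPMCa tumors, and 16.3 and 23.5 in TPMR1. The TPMCa libraries lay above all TPK and TPM libraries. Its difference in TPK was -1.14 ± 0.517 against TPMCa (adjusted p = 0.21 by edgeR), -0.70 ± 0.513 against TPMR1 and 0.27 ± 0.513 against TPM, the last being -0.48 without TPK replicate 1.

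By an adjusted p under 0.05 from edgeR, none of the 10 genes was called in any comparison, and the lowest adjusted p was 0.691 against TPM, 0.109 against TPMCa, 0.0727 against TPMR1 and 0.158 against the mean of the other models. Of all genes tested, 0% were called against TPM, 6.03% against TPMCa, 10.3% against TPMR1 and 7.28% against the mean. At an unadjusted p under 0.05 the members numbered 1, 3, 4 and 2 of 10 in the same order, beside 7.17%, 27.5%, 30% and 25.6% of all genes. DESeq2 called 0, 3, 2 and 2 members, beside 1.51%, 22.3%, 25.7% and 19.7% of all genes, so that its counts of members were near those shares. A test for any difference among the 4 models called none of the members and 7.32% of all genes, with the lowest adjusted p for Spry4 (0.108 by edgeR). The 3 comparisons share the TPK libraries and are not independent of each other.

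At the threshold of the study, a log2 fold change beyond 1 with an unadjusted p under 0.05, the members were counted beside the share of all genes. The study applied it with DESeq2 to TPK or TPM against TPMCa and TPMR1 together. Here it was applied to edgeR p-values and to TPK against each model and their mean. Against TPM, 1 member passed (Dusp6, higher), where 5.28% of all genes did. Against TPMCa, 3 members passed, all lower in TPK (Dusp5, Spry1 and Spry4), where 23.1% of genes did. Against TPMR1, 4 members passed, with Dusp4 and Dusp6 higher and Dusp5 and Spry4 lower, where 25.4% of genes did. Against the mean of the other models, 2 passed, both lower (log2 differences of -1.62 for Dusp5 and -2.03 for Spry4), where 18.4% of genes did. A count of 1 is 1 of 10 members, and with so few members these counts were not far from the shares over all genes. Counts with a library left out follow without the share of all genes in the same fit, and so show only how they moved. The count against TPM was 0 without TPK replicate 1 or any 1 of the TPM or TPMCa libraries. That against TPMCa was 0 without TPK replicate 2 or TPMCa replicate 1. That against TPMR1 was 2 without TPK replicate 2, TPMR1 replicate 1 or either TPMCa library. That against the mean was 0 without TPK replicate 2 or TPMCa replicate 1, 1 without TPK replicate 1, TPM replicate 2 or TPMCa replicate 2, and 4 without TPMR1 replicate 1.

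**Figure D2:**
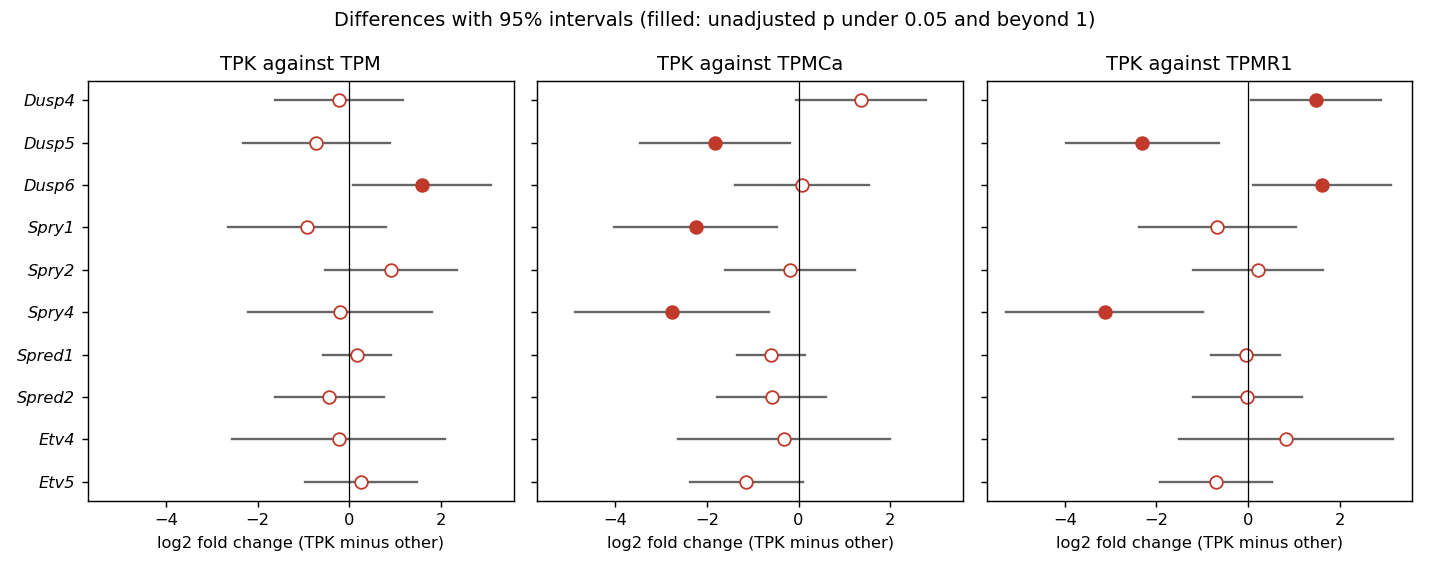
Log2 fold change of the 10 genes (TPK minus the other model) with 95% intervals from edgeR, 1 panel per comparison; filled points had an unadjusted p under 0.05 and a change beyond 1. Filled points were Dusp6 against TPM, Dusp5, Spry1 and Spry4 against TPMCa, and Dusp4, Dusp5, Dusp6 and Spry4 against TPMR1, and none of the points passed an adjusted p of 0.05.

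The direction was mixed within each comparison. The median log2 fold change of the 10 genes was -0.21 against TPM, -0.59 against TPMCa and -0.03 against TPMR1, beside medians of 0.01, 0.01 and -0.02 over all genes tested. The members with a negative difference numbered 6, 8 and 6 of 10. The TPK libraries did not overlap those of the other model for 4 members against TPM, 7 against TPMCa and 4 against TPMR1, where 47.9%, 62.9% and 57.5% of all genes did not overlap. No member lay outside the range of all 6 other libraries together, as 20.2% of all genes did. Among the models with Myc overexpression, TPMCa differed from TPM at the study's threshold for 4 members (Dusp6, Spry4 and Etv5 higher and Dusp4 lower in TPMCa), where 18.9% of genes passed. TPMR1 differed from TPM for 2 members (Spry4 higher and Dusp4 lower in TPMR1), where 20.1% of genes passed. TPMR1 differed from TPMCa for 1 member (Dusp6, lower in TPMR1 by 1.55 on the log2 scale), where 10.5% of genes passed.

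Ratios within a library do not depend on scaling between libraries, and they were computed per kilobase after the levels had been seen, so that they carry no test. Dusp6 was 3.44 and 4.22 times Dusp5 in the TPK libraries and between 0.0747 and 1.54 times Dusp5 in the other 6 libraries. The ratio of Dusp6 to Spry1 was 6.12 and 7.42 in TPK and between 0.984 and 1.79 elsewhere. For Dusp6 and Spry4 the ratio was 23.0 and 71.1 in TPK, 9.66 and 8.26 in TPM, 3.96 and 4.74 in TPMCa tumors, and 1.03 and 1.17 in TPMR1. TPK thus lay above all other libraries in each of these ratios. Such ratios do not remove differences in cell types between the models, whose part was not tested. The ratio of Dusp4 to Dusp5 was 3.78 and 6.68 in TPK and 3.07 and 4.49 in TPM, which overlapped, and 0.24 to 0.653 in TPMCa and TPMR1.

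**Figure D3:**
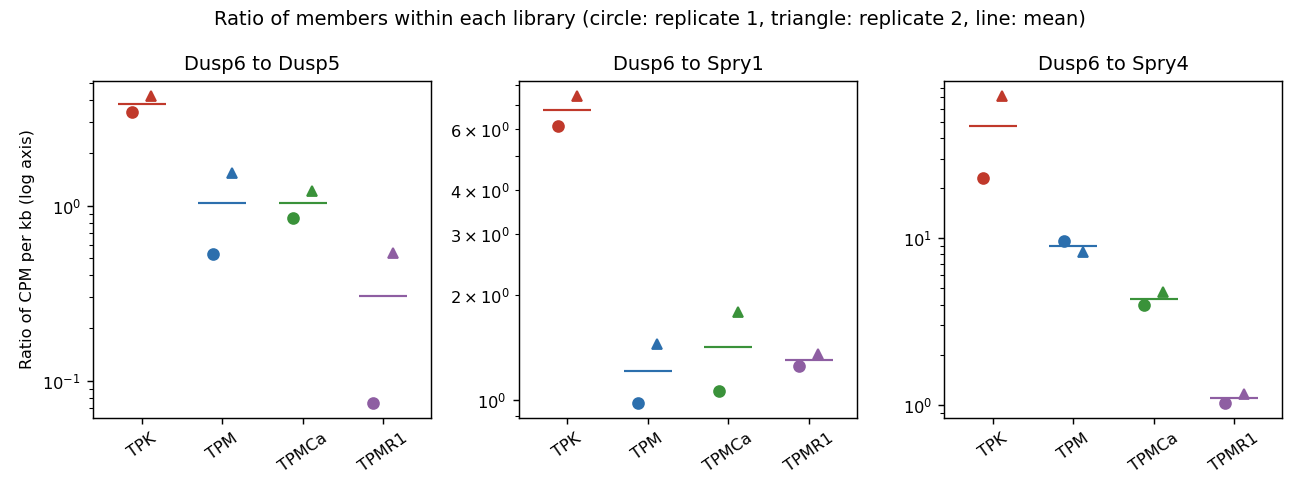
Ratio of Dusp6 to Dusp5, Spry1 and Spry4 in each library, from CPM per kb on log axes, with a circle for replicate 1, a triangle for replicate 2 and a line at the mean of each model. The TPK libraries had the highest value of each ratio, for example 3.44 and 4.22 for Dusp6 to Dusp5 against at most 1.54 elsewhere.

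The members followed a few patterns rather than one. Over the 8 libraries, which form 4 groups of 2 and differ in their cell type markers by model, each member was set beside the other member with the highest Pearson correlation of log2 CPM. Spry4 and Etv5 (0.89), Spry1 and Spred1 (0.87), and Dusp6 and Spry2 (0.80) were each the closest of the other. The closest to Spred2 was Spry1 (0.82), that to Dusp5 was Spry4 (0.79), and that to Etv4 was Spry1 (0.75). Dusp4 had no like member, with 0.08 for its closest, Etv4, and -0.83 for Spry4. Dusp6 and Dusp5 were at -0.27. Of all genes tested with a mean log2 CPM of at least 3, those most like Spry4 were Robo4 (0.992), Mki67 (0.99) and Snrpd3 (0.989). Those most like Dusp6 were Btg1 (0.974), 4632428N05Rik (0.969) and Cdc5l (0.968), and those most like Etv4 were Ndufa4l2 (0.931), Lsm3 (0.925) and Eef1g (0.915). With 8 libraries and 15875 genes to choose from, correlations of this size are a description only.

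Markers of other cell types moved with some members. The sum of 6 endothelial genes (Cdh5, Pecam1, Kdr, Tek, Emcn and Cldn5, none at 0) was 153 and 51.7 CPM in TPK, 117 and 96.8 CPM in TPM, 388 and 543 CPM in TPMCa tumors, and 157 and 608 CPM in TPMR1. Both Spry4 and these markers were lowest in TPK replicate 2 and highest in TPMR1 replicate 2. Spry4 came to 4.47 and 2.68 CPM per 100 CPM of endothelial markers in TPK, 4.2 and 4.67 in TPM, 8.42 and 4.4 in TPMCa tumors, and 10 and 9.38 in TPMR1. On this scale TPK overlapped TPM and TPMCa and stayed below TPMR1. Dusp5 came to 15.5 and 23.4 on the same scale in TPK, inside the range from 8.92 to 72.0 of the other libraries. The part of endothelial cells in these results was not tested. Dusp4 was higher in the models with epithelial markers, at 62.6 to 158.5 CPM in TPK and TPM, and was still at 17.2 to 50.3 CPM in TPMCa and TPMR1, whose epithelial sums were at most 73.3 CPM. Summed fibroblast markers (6 genes) were 2440 to 9920 CPM in TPK and 8510 to 16600 CPM in TPMCa, where Spry1 and Spred1 were highest, and 876 to 6580 CPM in TPMR1 and 2410 to 6370 CPM in TPM. Their part in those levels was not tested.

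**Figure D4:**
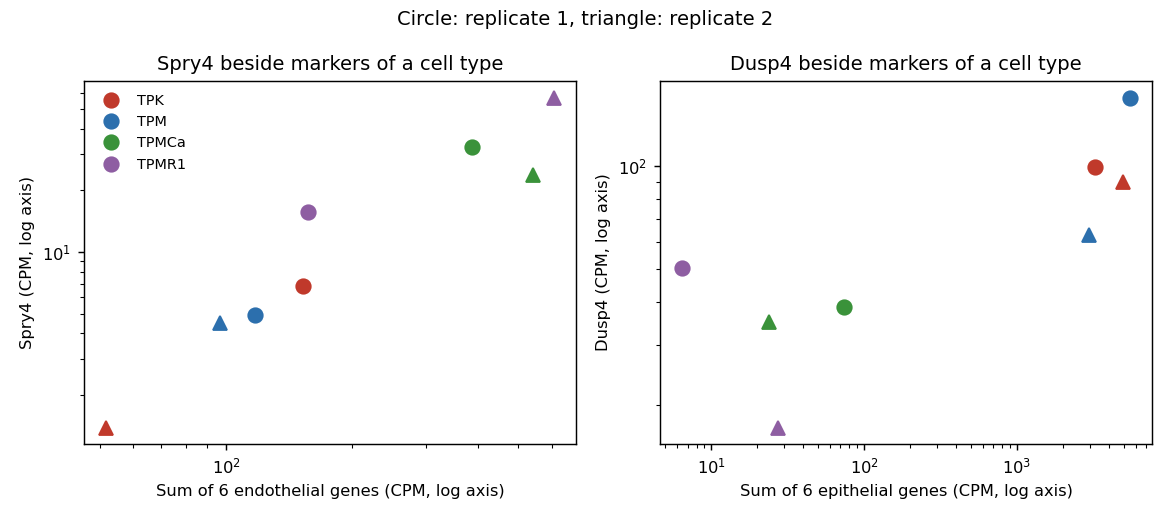
Spry4 beside the sum of 6 endothelial genes (left) and Dusp4 beside the sum of 6 epithelial genes (right), all in CPM on log axes, with 1 point per library, colors for the models, circles for replicate 1 and triangles for replicate 2. Spry4 was lowest in the library with the lowest endothelial sum (51.7 CPM) and highest in that with the highest sum (608 CPM).

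Other genes of the pathway were followed in 8 lists of 73 genes, of which 72 were tested. Against TPM, edgeR called 0 of them (DESeq2 called 1), where edgeR called 0% and DESeq2 1.51% of all genes. In that comparison 2 passed the study's threshold, where 5.28% of all genes did. Against TPMCa, 4 rose in TPK and 0 fell, where 4.6% of all genes were higher and 1.43% lower. Against TPMR1, 7 were higher and 2 lower in TPK, where 7.03% of all genes were higher and 3.31% lower. Out of 72 genes tested, these counts were not far from the shares over all genes. Fewer were called against TPMCa without any 1 of the TPK, TPM and TPMCa libraries, and more without either TPMR1 library. Against TPMR1, fewer were called without either TPK library or TPM replicate 1, and more without TPMR1 replicate 2. All genes called moved as well over the alternative fits, from 43 to 3547 against TPMCa and from 208 to 4076 against TPMR1. The pathway counts were not set beside the total of each such fit.

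Epithelial ETS factors were among the largest of these differences. Elf3, an epithelial ETS factor, was at 604.9 and 425.7 CPM in TPK, 524 and 372 in TPM, 12.48 and 0.612 in TPMCa tumors, and 1.55 and 1.89 in TPMR1. Its log2 difference was 6.3 ± 1.28 against TPMCa and 8.23 ± 1.4 against TPMR1 (adjusted p = 0.0402 and 0.0208 by edgeR). The first was 9.7 without TPMCa replicate 1 and 5.37 without TPMCa replicate 2. Ehf, of the same family, was at 550.1 and 899.9 CPM in TPK, 498.8 and 304.9 in TPM, 2.28 and 0.39 in TPMCa tumors, and 10.26 and 0.334 in TPMR1. It differed by 9.09 ± 1.77 against TPMCa and 7.08 ± 1.61 against TPMR1 (adjusted p = 0.0367 and 0.0411 by edgeR). These were 10.83 without TPMCa replicate 1 and 8.31 without replicate 2, and 11.05 without TPMR1 replicate 1 and 6.14 without replicate 2. Both moved with the summed epithelial markers, whose part in this was not tested.

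Among the FGF genes, Fgf1, a ligand of all FGF receptors, was at 18.17 and 38.96 CPM in TPK, 11.2 and 20.99 in TPM, and between 0.503 and 1.73 in TPMCa and TPMR1. It was higher in TPK by 4.16 ± 0.696 against TPMCa and 5.1 ± 0.731 against TPMR1 (adjusted p = 0.0251 and 0.014 by edgeR). Fgfbp1, which releases FGFs from the matrix, was at 47.38 and 96.45 CPM in TPK and 108.4 and 32.66 CPM in TPM. It had 2 and 3 counts in TPMCa and 11 and 0 counts in TPMR1 (adjusted p = 0.0191 and 0.0163 by edgeR for TPK against each). Both genes moved with the summed epithelial markers, whose part in this was not tested. The other 9 genes of this list were not called.

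Of the other MAP kinase phosphatases, Dusp7, a cytoplasmic relative of Dusp6, was at 102.8 and 108.5 CPM in TPM. It rose against TPMR1 by 1.85 ± 0.3, from 22.34 and 21.9 CPM to 99.61 and 59.66 CPM in TPK (adjusted p = 0.0188 by edgeR). Dusp9, of the same subgroup, was lower by 3.49 on the log2 scale, at 1.66 and 1.12 CPM in TPK, 6.74 and 9.50 in TPM, 18.24 and 7.90 in TPMCa tumors, and 23.08 and 8.28 in TPMR1 (adjusted p = 0.0348 by edgeR against TPMR1 and 0.0438 against the mean of the other models). All TPK libraries lay below all other libraries for Dusp9. Of the cascade genes, Ksr1, a scaffold of Raf and MEK, was lower in TPK than in TPMR1 (log2 difference -2.98 ± 0.59, adjusted p = 0.0295 by edgeR), and Rps6ka1, a kinase activated by ERK, was higher (1.98 ± 0.485, adjusted p = 0.0498 by edgeR). Epha2, a receptor whose gene responds to ERK, was also higher (3.09 ± 0.755, adjusted p = 0.0496 by edgeR). For both Rps6ka1 and Epha2 the TPK libraries overlapped those of TPM. Rps6ka1 was at 114.9 and 120 CPM in TPK and 91.45 and 115.8 CPM in TPM. Epha2 was at 229.5 and 184.6 CPM in TPK and 357.7 and 83.86 CPM in TPM. Each call named from these lists was lost by edgeR on leaving out at least 1 of the TPK libraries, and each was also called by DESeq2. With only the models compared in the fit, Dusp7, Dusp9, Ksr1 and Rps6ka1 had adjusted p-values of 0.0882, 0.0986, 0.0665 and 0.153 against TPMR1 by edgeR, and those of Ehf, Fgf1 and Fgfbp1 were 0.117, 0.0665 and 0.0719. Elf3 had 0.0511 against TPMCa in such a fit. With the size factors of DESeq2 in edgeR, the adjusted p of Rps6ka1 was 0.0528 and that of Epha2 was 0.0513.

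The immediate early genes (12 genes, among them the Fos, Jun and Egr families) had a median log2 difference of 0.16 in TPK against TPM, -2.45 against TPMCa and -1.05 against TPMR1. All 12 were negative against TPMCa, but edgeR called 0 of them in each comparison, where it called 0%, 6.03% and 10.3% of all genes. At the study's threshold 0, 5 and 3 of the 12 passed, all lower in TPK. Of all genes, 5.28%, 23.1% and 25.4% passed that threshold in either direction. Without TPMR1 replicate 2 the median against TPMR1 was 1.49, with 3 of 12 negative, and without TPMR1 replicate 1 it was -1.84, with 12 of 12 negative. Fos, named after its values were seen, was at 77.78 and 40.08 CPM in TPK, 2727 and 1190 CPM in TPMCa, and 54.67 and 1095 CPM in TPMR1, so that the TPMR1 libraries lay far apart. Against TPMCa the median lay between -3.72 and -1.94 on leaving out each library, and against TPM between -0.35 and 0.31, negative without TPK replicate 1. The other ERK-responsive genes (12 genes) had medians of -0.07, 0.17 and 1.94, beside 0.01, 0.01 and -0.02 over all genes. All of them except Errfi1 were lower in TPMR1 replicate 1 than in TPMR1 replicate 2. Ccnd1 was at 17.69 and 159.6 CPM in these libraries, and Errfi1 at 301.1 and 239.5 CPM. How this median moved on leaving out a library was not computed. The cascade kinases and scaffolds had medians of 0.12, 0.25 and 0.11, and the receptor adaptors, of which edgeR called 0 of 8 in each comparison, had -0.09, -0.18 and -0.23. The paralogs Spred3 and Etv1 were not called, and Spry3 was listed at 0 in each library and was not tested.

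**Figure D5:**
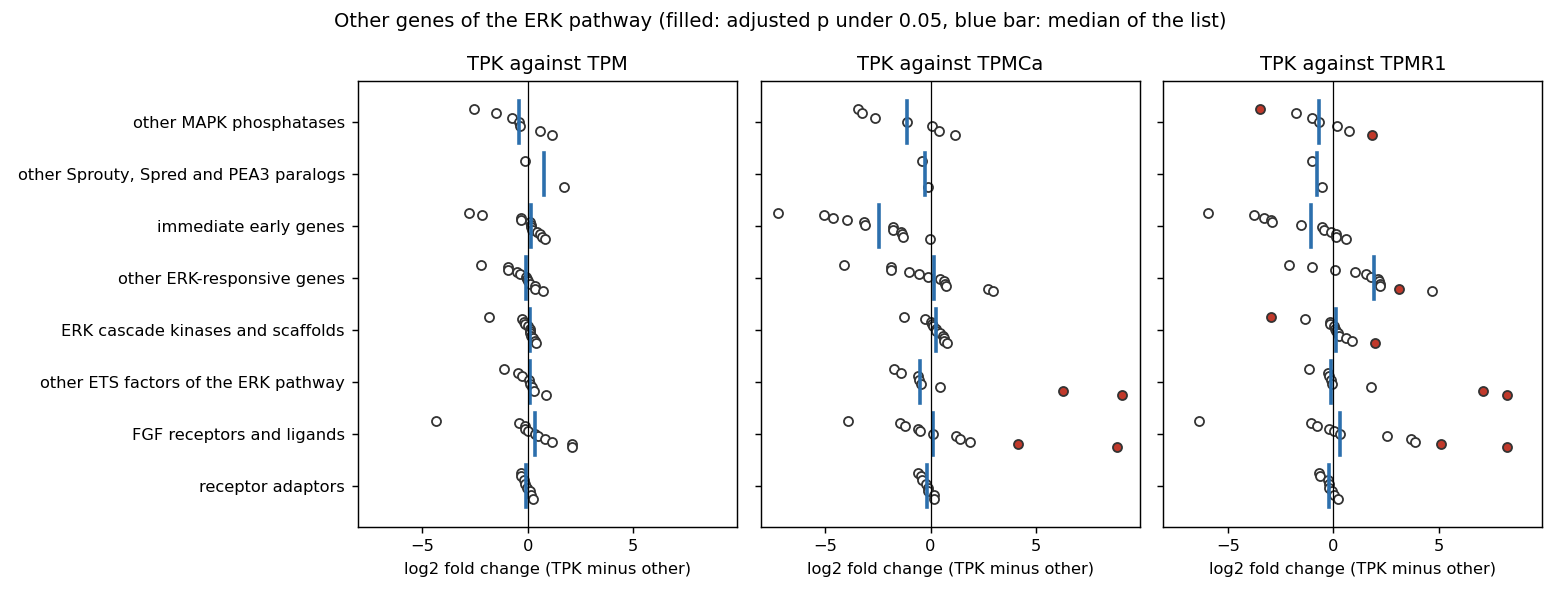
Log2 fold change (TPK minus the other model) of the other ERK pathway genes by list, 1 panel per comparison, 1 point per gene; filled points had an adjusted p under 0.05 by edgeR and blue bars mark each list's median. All immediate early genes were negative against TPMCa, with a median of -2.45, and filled points far to the right were Ehf, Elf3, Fgfbp1 and Fgf1.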

How the data were processed

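RNA of the 8 libraries was sequenced, aligned to mm10 with STAR and counted per gene symbol by the authors, and the deposited values are raw counts. The counting program was not given in the sources used here. A second table, normalized with DESeq2 by the authors, was not used. Column headings name the TPM libraries TPMS. Counts were scaled with TMM and filtered with filterByExpr in edgeR 4.0.16 (limma 3.58.1, R 4.3.3). A single quasi-likelihood model with 1 coefficient per tumor model was fitted to all 8 libraries, and p-values were adjusted by Benjamini-Hochberg over 15875 genes. Log2 CPM for correlations used a prior count of 2. DESeq2 1.42.0, other scalings and filters, a replicate block and leaving out each library were alternatives, and the scripts were tested on simulated data. The members and lists were chosen with earlier results of these data known. Named genes were all members, the called genes of each list (at most 4 per list and comparison), and the genes most like Dusp6, Spry4 and Etv4. Gene positions came from GENCODE M21. Between 2 models, a permutation test of 2 against 2 libraries could not go below a p of 0.333, and none was run. Some engineered genes are not reported here.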

Additional observations from a re-analysis of the deposited data

How the results depend on the processing

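Other scalings within edgeR, no filter on low counts and a mean CPM of at least 1 left the count of members with an adjusted p under 0.05 at 0 in each TPK comparison. The DESeq2 Wald test gave 3 against TPMCa, 2 against TPMR1 and 2 against the averaged other models, where it called 22.3%, 25.7% and 19.7% of all genes, and fitting only the models compared gave 1 against TPMCa. Leaving out each library gave 0 to 1 in these 3 comparisons. Counts at the study's threshold and of called pathway genes under the alternatives were chosen after seeing the data. Shares of all genes past the study's threshold under these alternatives are not given. Nor are the shares called in each fit of only the models compared or with a library left out. Counts of members and of pathway genes without the share of the same fit therefore show only how they moved between fits. At the study's threshold the count against TPM was 0 with library size alone and 0 to 1 on leaving out each library. Against TPMCa it was 5 by DESeq2 and 0 to 4 on leaving out each library. Against TPMR1 it was 2 with only the models compared and 2 to 3 on leaving out each library. Against the mean it was 1 with the other models pooled as one group and 0 to 4 on leaving out each library. DESeq2 called 1, 19, 21 and 16 pathway genes against TPM, TPMCa, TPMR1 and the mean, and fitting only the models compared (pooling the others for the mean) called 15 against TPMCa, 2 against TPMR1 and 0 against the mean. Leaving out each library gave 0 to 16 against TPMCa, 1 to 21 against TPMR1 and 0 to 14 against the mean. All genes called over the alternatives ranged from 0 to 240 against TPM (0 in the fit reported), 43 to 3547 against TPMCa (957), 208 to 4076 against TPMR1 (1641) and 0 to 3126 against the mean (1156), each highest by DESeq2. Dusp9 against the mean had an adjusted p of 0.331 with the other models pooled (edgeR). The cause of these shifts was not tested.

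A replicate block, a term for the number in the labels, gave 1 member called against TPMR1 (Dusp5, adjusted p = 0.0331 by edgeR), 0 members at the study's threshold against TPM and 1 against the mean, adjusted p-values of 0.0538 for Dusp9 against the mean and 0.0544 for Rps6ka1 against TPMR1 (edgeR), and 623 and 1038 genes called against TPMCa and TPMR1. Within each model, the difference in level between its replicates was taken for each gene, in the order of their numbers. The 6 correlations of these differences between models lay between -0.069 and -0.008. The numbers therefore gave no sign of pairing the libraries of different models.

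Directions turned for small differences. Library size alone gave -0.05 for Dusp6 against TPMCa and -0.05 for Etv4 against the mean, and the replicate block gave -0.11 for Etv4 against the mean and 0 for Spred2 against TPMR1. On leaving out each library, the log2 differences against TPM ranged from -0.74 to 0.58 for Dusp4, -1.37 to 0.50 for Dusp5, -1.77 to 0.54 for Spry4, -0.10 to 0.39 for Spred1, -1.95 to 0.54 for Etv4 and -0.48 to 0.76 for Etv5. Against TPMCa they ranged from -0.33 to 0.38 for Dusp6, -0.57 to 0.34 for Spry2 and -2.07 to 0.44 for Etv4. Against TPMR1 they ranged from -1.33 to 0.58 for Spry1, -0.39 to 1.28 for Spry2, -0.32 to 0.28 for Spred1, -0.55 to 0.84 for Spred2 and -0.88 to 2.15 for Etv4, and against the mean from -0.43 to 0.06 for Spred1 and -1.63 to 0.86 for Etv4. A fit that leaves 1 library in a model assumes that it varies like the other models. The lowest count of a member was 21 reads, above the floor of 3.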
